A study of Mus musculus with 2 samples.

Results

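The genes described here code for the canonical core histones H2A, H2B, H3 and H4 and for the linker histones H1. They were chosen by symbol, as every feature named H1f, H2ac, H2bc, H3c or H4c followed by a number, which took 69 of 25828 features: 11 H1, 17 H2A, 17 H2B, 12 H3 and 12 H4 genes. Single-cell RNA sequencing counts came from iMPCs (induced myogenic progenitor cells), which resemble muscle progenitors and were made from mouse embryonic fibroblasts carrying the Pax7-nGFP reporter (genotype Tg:Pax7-nGFP/C57BL6;DBA2). In both groups the fibroblasts received 4 transfections of synthetic MyoD-mRNA, which codes for a transcription factor of the muscle lineage, in medium with B18R, a protein of viral origin that captures type I interferon. The F/R/C+CP library held 1 clone grown with Forskolin, RepSox and CHIR together with CP, an inhibitor of JAK kinases. The F/R/C library held 1 clone grown with Forskolin, RepSox and CHIR alone. Myotubes had been strained out before loading. Since each group is 1 library of 1 clone, the effects of treatment, of clone and of library preparation cannot be told apart, no p-value is given, and every interval below covers counting error only.

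Core histones form the octamer around which DNA is wrapped, and linker histones bind where DNA enters and leaves it. Most canonical histone genes lie in clusters and are transcribed mainly while DNA is replicated in S phase, and their mRNAs end in a conserved stem-loop in place of a poly(A) tail, which the stem-loop binding protein Slbp recognises. A few members, such as H1f0 and H1f10, are transcribed outside S phase as well and give polyadenylated mRNAs. Reads of this assay start from poly(A), so a member's level reflects the polyadenylated part of its mRNA. Levels are therefore compared for 1 gene between classes of cells or libraries, and a higher value of one gene than another does not rank their total mRNA.

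The stem-loops are shown because they set apart the members whose models carry the letters of a non-polyadenylated end. All 69 members were found by gene ID in GENCODE M21 (GRCm38), with 54 on chromosome 13, 10 on chromosome 3, 2 each on chromosomes 6 and 15, and 1 on chromosome 11. The counts themselves were made on GRCm39, so the coordinates given here are those of GRCm38 models. The 16 letters of the stem-loop were found in the transcript models of 43 members, and they are in capitals below with up to 5 bases on each side.
H4c4: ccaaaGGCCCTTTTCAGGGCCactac
H2ac24: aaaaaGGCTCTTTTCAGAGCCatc
H3c3: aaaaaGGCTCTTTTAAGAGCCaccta
H1f2: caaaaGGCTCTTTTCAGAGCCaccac
H1f4: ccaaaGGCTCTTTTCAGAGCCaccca
H4c9: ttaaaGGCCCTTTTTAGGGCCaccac
H4c11: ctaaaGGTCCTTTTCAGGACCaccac
The letters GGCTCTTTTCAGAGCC were the most frequent and were found in 24 members. All 11 H4 genes with a stem-loop had another stem, 9 of them a stem that starts with GGCC and 2 one that starts with GGTC. In 23 models the transcript ended near the stem-loop, as for H2ac24 (chr13:21833026-21833507, minus strand) and H3c3 (chr13:23744973-23745602, minus strand). In 20 models at least 100 bases followed it, with 770 bases for H4c4 (chr13:23581598-23582735, plus strand), 840 for H1f2 (chr13:23738808-23740367, plus strand) and 1153 for H1f4 (chr13:23620629-23622558, minus strand). The letters were not in the models of the other 26 members, among them H1f5 (chr13:21779883-21780625, minus strand), H1f0 (chr15:79028450-79030504, plus strand) and H2bc4 (chr13:23684199-23692908, plus strand), whose model has 2 exons. A model without the letters may simply stop before them.

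Many members share stretches of sequence with other annotated transcripts. In the last 300 bases of the models, 29 members shared at least 50% of their 75-base stretches with another annotated transcript, 9 shared every stretch and 24 shared none. H1f5, H1f1, H1f0, H1f10, H1f2, H2bc4, H4c4 and H4c9 were among those that shared none. Among the genes given by value below, H2ac24, H1f4, H3c6, H3c7 and H2ac18 shared 100% of theirs and H2ac13 shared 99.1%. Their counts depend on how reads that match several genes were assigned and are uncertain. H2ac4, H2bc11 and H4c8 shared between 59.7% and 66.8%. The model of H1f4 overlaps those of H2bc6 and Gm11398 on the same strand.

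Promoters of the members are described because H2B promoters are known for an octamer element bound by Oct1. RefSeq promoters (GRCm38.p6, from 250 bases before to 50 after the start) were at hand for 62 members. The letters ATTTGCAT, read on either strand, were found in 7 of 14 H2B promoters (50%) and 6 of 17 H2A promoters (35.3%), in none of the H1, H3 and H4 promoters, and in 570 of all 32851 promoters (1.74%). Windows of 30 bases around the octamer, which is in capitals, are given for H2bc18 (chr3:96269641-96269670, plus strand), H2bc14 (chr13:21722008-21722037, plus strand), H2bc8 (chr13:23571330-23571359, plus strand) and H2ac6 (chr13:23684071-23684100, minus strand).
H2bc18: tgtgaaacctcATTTGCATacaagctctat
H2bc14: ctctcgtctctATTTGCATaacagcgtgta
H2bc8: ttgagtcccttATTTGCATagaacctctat
H2ac6: tgggtgggattATGCAAATgaagtttccag
The window of H2bc8 is also that of its divergent neighbour H2ac8, on the other strand. H2bc1 and H2ac1, and H2bc12 and H2ac12, likewise share a window. The H2A and H2B matches of these pairs are therefore the same sites, counted under both roles. The window of H2ac6 lies between the model of H2ac6 (chr13:23681467-23683948, minus strand) and that of H2bc4, which points the other way. A CCAAT box (CCAAT, either strand) was in 100% of the H2A, H2B and H3 promoters, 70% of H1 and 27.3% of H4 promoters, against 37.4% of all promoters. The letters TATAAA were in 72.7% of H4 and 64.7% of H2A promoters, against 13.6% of all promoters. Members were counted once per gene, while all promoters were counted one by one. Such matches describe the letters in these windows and not the binding of a factor.

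The F/R/C+CP library held far more UMIs per barcode than the F/R/C library. Its deposited barcodes each had at least 12097 UMIs, against at least 500 for F/R/C. Barcodes with fewer UMIs are thus absent from the F/R/C+CP counts. After the filter of the study, 10834 of 12000 F/R/C+CP barcodes were kept with a median of 21845 UMIs (12097 to 113007), and 3962 of 5541 F/R/C barcodes with a median of 7112 (500 to 23465). In each library 5 classes of barcodes were made without any member gene: the top 10% by Acta1 (Acta1-high, 1083 F/R/C+CP and 396 F/R/C barcodes), the next 10% by Myog (Myog-high, 1083 and 396), the top of an S list of 39 genes (S-phase-like, 1557 and 532), the top of a G2/M list of 51 genes (G2/M-like, 1534 and 541), and barcodes below the median of both lists with Pax7 counts (non-cycling Pax7-positive, 584 and 360). Such classes are ranges of a score and not cell types, and between 75 and 756 kept barcodes lay within 10% of a limit. Median UMIs in the S-phase-like, G2/M-like, Myog-high, Acta1-high and non-cycling Pax7-positive classes were 21180, 25059, 24050, 40901 and 16099 in the F/R/C+CP library and 7491, 9043, 7756, 7877 and 5969 in the F/R/C library. Of the kept barcodes, 11 strings occurred in both libraries. Acta1, Ckm, Myh3, Tnnc2 and Tnnt3, genes of differentiated muscle, summed to 31441 counts per 1000000 (CPM) in Acta1-high against 2684 CPM in non-cycling Pax7-positive F/R/C+CP barcodes, and to 20372 against 244 CPM in F/R/C barcodes. All 5 pericyte, smooth muscle and connective tissue markers had counts in non-cycling Pax7-positive barcodes, summing to 207 CPM for F/R/C+CP and 95.7 CPM for F/R/C, and their part in the results was not tested.

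Histone genes as a group were highest in the cycling classes of both libraries. The 69 genes together took 3996 CPM in S-phase-like, 3866 in G2/M-like, 568 in Myog-high, 931 in Acta1-high and 517 CPM in non-cycling Pax7-positive F/R/C+CP barcodes. The F/R/C sums were 1823, 1735, 520, 655 and 280 CPM in the same order of classes. S-phase-like and G2/M-like sums thus lay close together and far above the other classes, and Acta1-high barcodes lay above Myog-high and non-cycling ones. The genes behind these sums differed between classes. Linker histones gave 49.5% of the histone UMIs of S-phase-like F/R/C+CP barcodes and 63.4% of those of S-phase-like F/R/C barcodes, and H1f5 alone gave 31.1% and 39.0%. In Acta1-high barcodes H2B genes gave 71.8% in the F/R/C+CP library and 63.5% in the F/R/C library, nearly all of it from H2bc4 (70.1% and 61.8%).

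Counts were found for 67 of the 69 genes in the F/R/C+CP library and 63 in the F/R/C library. In all, 27 genes reached 20 CPM in at least 1 class and are given by value below, 34 had at least 10 counts over both libraries but stayed under 20 CPM, and 8 had fewer than 10 counts. Those 8 were the testis linker histones H1f6, H1f7 and H1f9, the testis genes H2ac1 and H2bc1, and H2ac19, H2bc23 and H4c17. The oocyte linker histone H1f8 had 29 counts in all. Of the 27 genes, 17 were highest in G2/M-like, 8 in S-phase-like and 2 in Acta1-high F/R/C+CP barcodes, and 18, 7 and 2 in the F/R/C library. The genes were chosen by their level in a class, and the share of all features by highest class was not computed. These counts therefore do not set histone genes apart from other genes.

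**Figure D1:**
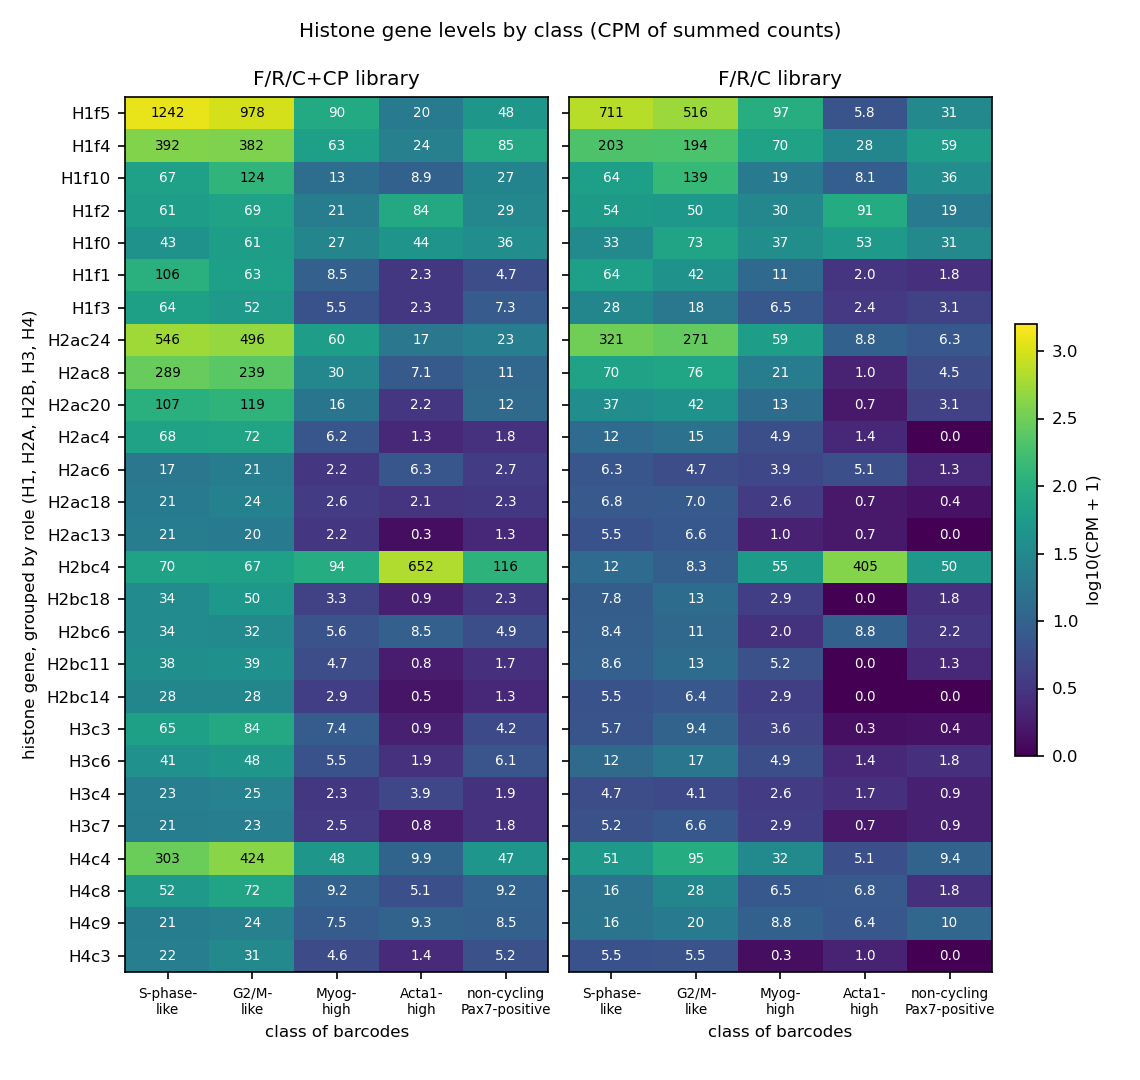
Level of each of the 27 histone genes that reached 20 CPM, in CPM of summed counts, in the 5 classes of barcodes (columns) of the F/R/C+CP library (left) and the F/R/C library (right), with genes grouped by role from H1 to H4 and colour on a log10(CPM + 1) scale. Most genes are bright in the S-phase-like and G2/M-like columns, while H2bc4 is brightest under Acta1-high, at 652 CPM in F/R/C+CP and 405 CPM in F/R/C.

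The comparison of S-phase-like with non-cycling Pax7-positive barcodes asks how far each gene follows DNA replication within 1 library. H1f5, a replication-dependent linker histone, had 1242 CPM in S-phase-like against 48.5 CPM in non-cycling Pax7-positive F/R/C+CP barcodes, and 711 against 31.0 CPM in F/R/C barcodes. Its log2 ratios were 4.68 (95% interval 4.55 to 4.81) and 4.52 (4.17 to 4.89), so the intervals of the libraries overlapped. Among the other replication-dependent linker histones, H1f1 had 106 against 4.72 CPM in F/R/C+CP and 63.7 against 1.80 CPM in F/R/C barcodes, with log2 ratios of 4.48 and 5.15. H1f3 had 64.2 against 7.33 CPM and 28.5 against 3.15 CPM. H1f4 and H1f2 kept more of their level outside the cycling classes. H1f4 had 392 against 84.6 CPM in F/R/C+CP and 203 against 58.9 CPM in F/R/C barcodes, for log2 ratios of 2.21 (2.11 to 2.31) and 1.78 (1.52 to 2.06). H1f2 had 61.4 against 28.9 CPM and 53.8 against 19.3 CPM, for log2 ratios of 1.09 (0.91 to 1.26) and 1.48 (1.0 to 1.99).

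Of the replacement linker histones, H1f0 differed little between these classes. The rise of H1f10 was close to that of H1f2 in the F/R/C+CP library. H1f0, known as the H1 of differentiated and resting cells, had 43.2 CPM in S-phase-like against 35.7 CPM in non-cycling Pax7-positive F/R/C+CP barcodes and 32.6 against 31.5 CPM in F/R/C barcodes, and the F/R/C interval of its log2 ratio reached from −0.38 to 0.50. H1f10, which codes for H1X, had 67.4 against 27.1 CPM and 63.7 against 36.0 CPM, for log2 ratios of 1.31 (1.14 to 1.5) and 0.83 (0.46 to 1.21). H1f10 therefore passed 2-fold in the F/R/C+CP library and missed it in the F/R/C library. Against the same non-cycling class, H1f10 was at least 2-fold higher in G2/M-like barcodes of both libraries. H1f0 was so in the F/R/C library only.

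Among H2A genes, H2ac24 had 546 against 22.7 CPM in F/R/C+CP and 321 against 6.29 CPM in F/R/C barcodes, with log2 ratios of 4.59 and 5.67. H2ac8 had 289 against 10.5 CPM and 69.7 against 4.49 CPM. H2ac20 had 107 against 12 CPM and 36.5 against 3.15 CPM. H2ac4 showed the highest F/R/C+CP ratio of the 7 H2A genes, 67.9 against 1.83 CPM (log2 5.21, 4.57 to 5.95), and in the F/R/C library it had 12.3 CPM in S-phase-like barcodes and no count in non-cycling ones, which makes it at least 3.19 higher on the log2 scale against a floor of 3 counts. H2ac13, H2ac18 and H2ac6 were between 17.4 and 20.8 CPM in S-phase-like F/R/C+CP barcodes and between 5.48 and 6.79 CPM in S-phase-like F/R/C barcodes.

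Among H2B genes, H2bc11 had 37.9 against 1.73 CPM in F/R/C+CP and 8.62 against 1.35 CPM in F/R/C barcodes. H2bc18 had 33.7 against 2.31 CPM and 7.83 against 1.80 CPM. H2bc14 had 28.0 against 1.25 CPM in F/R/C+CP barcodes and 5.48 CPM against no count in F/R/C ones, and H2bc6 had 34.1 against 4.92 CPM and 8.35 against 2.25 CPM. These H2B genes were all at least 2-fold higher in S-phase-like barcodes of each library. H2bc4 went the other way, with 69.8 CPM in S-phase-like against 116 CPM in non-cycling Pax7-positive F/R/C+CP barcodes and 12 against 49.9 CPM in F/R/C barcodes. Its log2 ratios were −0.73 (−0.83 to −0.63) and −2.05 (−2.58 to −1.55), the only F/R/C ratio below −1 among the members.

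H3 genes had fewer counts in the F/R/C library. H3c3 had 64.7 against 4.24 CPM in F/R/C+CP and 5.74 against 0.449 CPM in F/R/C barcodes, where the non-cycling value is 1 UMI. H3c6 had 40.8 against 6.07 CPM and 11.7 against 1.80 CPM. H3c4 and H3c7 had 22.6 and 21.1 CPM in S-phase-like F/R/C+CP barcodes and 4.70 and 5.22 CPM in F/R/C ones, each at least 2-fold above non-cycling barcodes.

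Among H4 genes, H4c4 had 303 against 47.3 CPM in F/R/C+CP and 51.2 against 9.44 CPM in F/R/C barcodes, for log2 ratios of 2.68 (2.55 to 2.81) and 2.44 (1.79 to 3.16). H4c8 had 52.3 against 9.16 CPM and 15.7 against 1.80 CPM. H4c3 had 22.2 against 5.20 CPM in F/R/C+CP barcodes and 5.48 CPM against no count in F/R/C ones. H4c9 varied least of the H4 genes above 20 CPM, with 21.1 against 8.48 CPM (log2 1.32) and 15.9 against 10.3 CPM (log2 0.62, −0.09 to 1.38).

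Of the 60 histone genes that held 10 counts or more in these sums together, 56 were at least 2-fold higher in S-phase-like F/R/C+CP barcodes, where 7.56% of all features tested were, and the median log2 ratio was 3.35 against −0.09 over all features. For F/R/C barcodes 29 of 34 genes were (9.05% of all features), with a median of 2.17 against 0.00. All 29 were among the 34 genes tested in both libraries and were 2-fold higher in each. Genes that passed the count minimum only through their S-phase-like counts had to be higher, and 10 of the F/R/C ratios are bounds. Where the non-cycling sum alone held at least 10 counts, 28 of 30 genes were 2-fold higher in F/R/C+CP and 6 of 10 in F/R/C. For this stricter minimum no share of all features was computed, so these counts have no background to be set against. The genes short of 2-fold were H1f0, H2bc21, H2bc4 and H3c15 in the F/R/C+CP library and H1f0, H1f10, H2bc4, H4c1 and H4c9 in the F/R/C library.

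**Figure D2:**
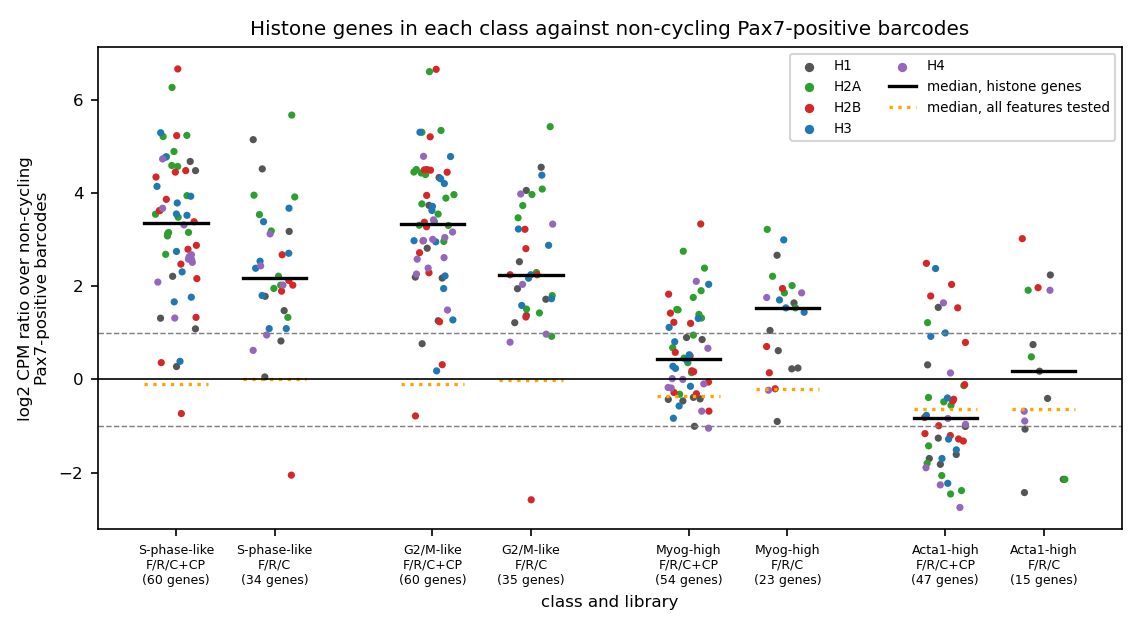
Log2 CPM ratio of each histone gene in the S-phase-like, G2/M-like, Myog-high and Acta1-high classes over non-cycling Pax7-positive barcodes of the same library, F/R/C+CP left of F/R/C, coloured by role, with dashed lines at 2-fold and genes without a count in one sum placed at their bound. The black line is the median of the histone genes and the dotted line that of all features tested. The medians of the histone genes stand at 3.35 and 2.17 for S-phase-like barcodes, and at −0.84 and 0.18 for Acta1-high barcodes.

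Shares of barcodes with a UMI, at an equal depth of 2000 UMIs per barcode, gave the same order of classes for the leading genes. H1f5 was seen in 69.0% of S-phase-like against 6.68% of non-cycling Pax7-positive F/R/C+CP barcodes (94.7% and 43.7% before thinning), and in 52.2% against 6.48% of F/R/C barcodes (72.2% and 14.4%). H2ac24 was seen in 54.3% against 4.45% of thinned F/R/C+CP barcodes and in 36.0% against 0.845% of F/R/C ones. In each library 26 of the 27 genes had a higher thinned share in S-phase-like than in non-cycling Pax7-positive barcodes, H2bc4 being the exception. These 27 genes were chosen for reaching 20 CPM in a class, and most were highest in a cycling class, so the choice favoured this count. The share of all features was not computed.

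G2/M-like barcodes resembled S-phase-like ones against the non-cycling class. Against that class 56 of 60 genes were at least 2-fold higher in F/R/C+CP (5.95% of all features tested), and 31 of 35 were in F/R/C (7.33%), 11 of those 35 ratios being bounds. With at least 10 counts in the non-cycling sum these counts were 28 of 30 and 8 of 10, without a matching share of all features. The direct comparison of S-phase-like with G2/M-like barcodes separated some genes, as a description by counting intervals. H1f5 was higher in S-phase-like barcodes, with 1242 against 978 CPM in F/R/C+CP and 711 against 516 CPM in F/R/C, for log2 ratios of 0.34 (0.32 to 0.36) and 0.46 (0.38 to 0.54). H1f1 (log2 0.75 and 0.59), H1f3 (0.32 and 0.65) and H2ac24 (0.14 and 0.25) also had intervals above 0 in both libraries. These differences are all under 2-fold.

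Other genes were higher in G2/M-like barcodes. H1f10 had 67.4 CPM in S-phase-like against 124 CPM in G2/M-like F/R/C+CP barcodes and 63.7 against 139 CPM in F/R/C ones, for log2 ratios of −0.88 and −1.12. H1f0 had 43.2 against 60.7 CPM and 32.6 against 73.2 CPM (−0.49 and −1.16). H4c4 had 303 against 424 CPM and 51.2 against 95.1 CPM (−0.49 and −0.89). H4c8 and H2bc18 likewise had intervals below 0 in both libraries. Of 41 genes with at least 10 counts in each library's comparison, 4 were thus above 0 in both and 5 below 0 in both. The share of all features with such intervals was not computed, so these counts do not set histone genes apart from other genes.

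Myog-high barcodes, which hold the transcript of a transcription factor of committed muscle cells, carried low histone levels. H1f5 had 90.4 CPM in Myog-high against 48.5 CPM in non-cycling Pax7-positive F/R/C+CP barcodes and 96.8 against 31.0 CPM in F/R/C barcodes, far below its 1242 and 711 CPM in S-phase-like ones. H2ac24 had 59.6 against 22.7 CPM and 58.7 against 6.29 CPM. H2bc4 had 93.7 against 116 CPM (log2 −0.31, −0.41 to −0.21) and 55.1 against 49.9 CPM (0.14, −0.21 to 0.50). For F/R/C+CP barcodes 17 of 54 genes were at least 2-fold higher (8.28% of all features tested) and 2, H1f10 and H4c1, were 2-fold lower (27.2%). Of 23 genes tested in F/R/C barcodes, 15 were 2-fold higher (11.3%) and none lower (24.9%). Genes that passed the count minimum only through their Myog-high counts had to be higher. With at least 10 counts in the non-cycling sum, 5 of 30 were 2-fold higher in F/R/C+CP (median log2 ratio 0.17) and 4 of 10 in F/R/C (0.43). No share of all features was computed for that minimum. Only H2ac24, H2ac4, H2ac8 and H2bc11 were 2-fold higher in both libraries.

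Part of the Myog-high barcodes lay above the library median of a cycle list, since 81.3% of F/R/C+CP and 59.3% of F/R/C ones were under both medians. With the class limited to those under both, 1 of 42 genes was 2-fold higher in the F/R/C+CP library and 0 of 11 in the F/R/C library, and the median log2 ratios were −0.52 and −0.46 in place of 0.44 and 1.54. H1f5 then had a log2 ratio of −2.42 in the F/R/C library. The count also followed the limit of the class: with limits of 5% and 8% it was 1 of 42 genes, and with limits of 20% and 25% it was 39 of 59, in the F/R/C+CP library.

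Acta1-high barcodes, those with the most of a skeletal muscle actin transcript, held more H2bc4 than any other class in both libraries and less of several linker histones than non-cycling Pax7-positive ones. H1f5 had 20.2 CPM in Acta1-high against 48.5 CPM in non-cycling Pax7-positive F/R/C+CP barcodes and 5.76 against 31.0 CPM in F/R/C barcodes, for log2 ratios of −1.26 and −2.43. H1f4 had 23.9 against 84.6 CPM (−1.82) and 28.1 against 58.9 CPM (−1.07), and H1f10 had 8.86 against 27.1 CPM (−1.61) and 8.13 against 36.0 CPM (−2.14). These linker histones were the only members 2-fold lower in both libraries. H4c4 had 9.85 against 47.3 CPM (−2.26) in F/R/C+CP and 5.08 against 9.44 CPM (−0.89, −1.95 to 0.13) in F/R/C barcodes.

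H2bc4 had 652 CPM in Acta1-high against 116 CPM in non-cycling Pax7-positive F/R/C+CP barcodes and 405 against 49.9 CPM in F/R/C barcodes. The log2 ratios were 2.49 (2.41 to 2.58) and 3.02 (2.74 to 3.32). At 2000 UMIs per barcode it was seen in 64.7% of Acta1-high against 20.2% of non-cycling Pax7-positive F/R/C+CP barcodes (99.8% and 76.2% before thinning) and in 54.5% against 8.45% of F/R/C barcodes (81.1% and 20.6%). H1f2, a somatic linker histone, had 84.5 against 28.9 CPM (log2 1.55, 1.38 to 1.72) and 91.5 against 19.3 CPM (2.24, 1.77 to 2.74). H1f2 was thus high both in cycling and in Acta1-high barcodes, while H2bc4 was high in Acta1-high ones alone. H2ac6, the neighbour of H2bc4, had 6.28 against 2.70 CPM (1.22, 0.66 to 1.83) and 5.08 against 1.35 CPM (1.91, 0.09 to 4.34), a level that rests on few UMIs in the F/R/C library. H1f0 had 44.3 against 35.7 CPM (0.31) and 52.8 against 31.5 CPM (0.75), under 2-fold in each.

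**Figure D3:**
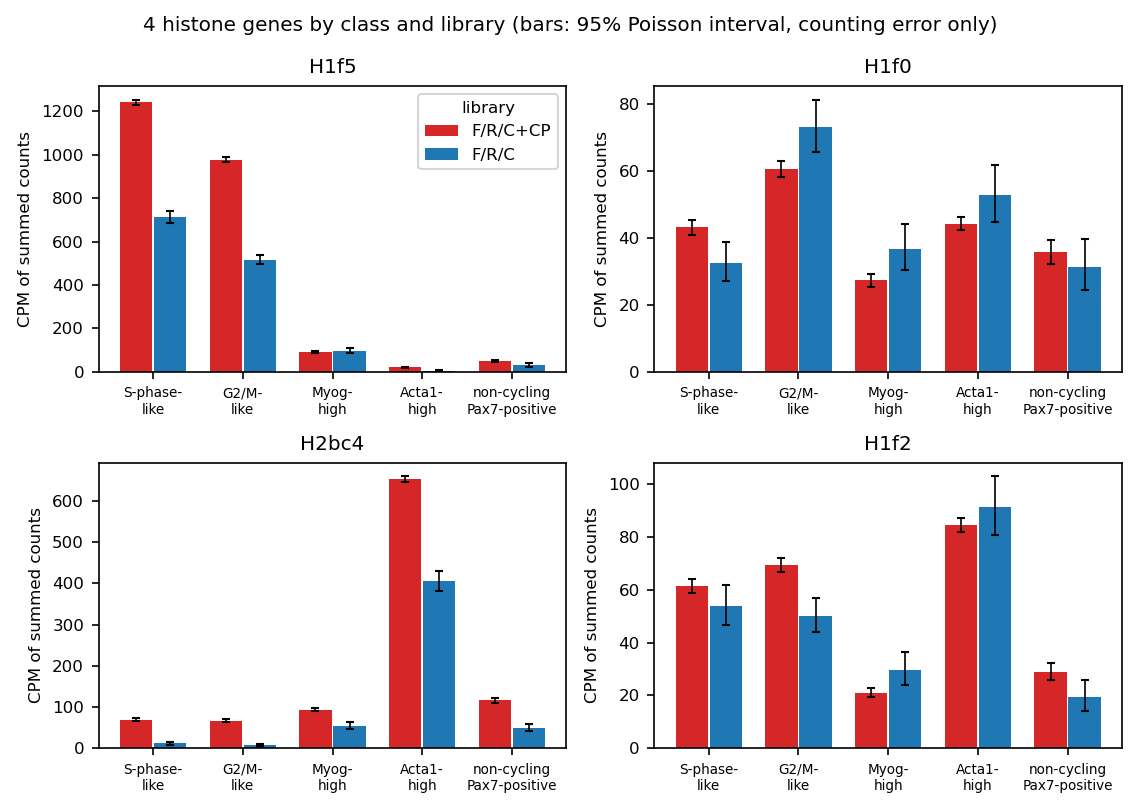
CPM of summed counts of H1f5, H1f0, H2bc4 and H1f2 in the 5 classes of barcodes, red bars for the F/R/C+CP library and blue bars for the F/R/C library, with 95% Poisson intervals that cover counting error only. H1f5 is tall only in the S-phase-like and G2/M-like classes, H2bc4 in the Acta1-high class (652 and 405 CPM), and H1f2 in all of these, while H1f0 stays between 27.3 and 73.2 CPM.

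Muscle transcripts were found in the other classes too, and H2bc4 was set beside them. H2bc4 in S-phase-like, G2/M-like, Myog-high and non-cycling Pax7-positive F/R/C+CP barcodes stood at 10.7%, 10.3%, 14.4% and 17.8% of its Acta1-high level, where the 5 muscle markers stood at 5.53%, 5.06%, 17.6% and 8.54% of theirs. In F/R/C barcodes H2bc4 stood at 2.96%, 2.05%, 13.6% and 12.3%, and the muscle markers at 1.14%, 1.11%, 11.6% and 1.20%. The part of muscle RNA in the H2bc4 values of these classes was not tested.

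Over the members tested, 8 of 47 were at least 2-fold higher in Acta1-high F/R/C+CP barcodes (11.4% of all features tested) and 21 were 2-fold lower (38.8%), and the median log2 ratio was −0.84 against −0.63 over all features. The share lower is thus near that of all features, and the median moved to −0.057 with class limits of 20% and 25%. Of 15 genes tested in F/R/C barcodes, 5 were higher (11.2%) and 4 lower (36.8%), with a median of 0.18 against −0.63. With at least 10 counts in the non-cycling sum, 3 were higher and 16 lower of 30 in F/R/C+CP, and 2 higher and 4 lower of 10 in F/R/C. Matching shares of all features were not computed for that minimum. H1f2, H2ac6 and H2bc4 were the genes 2-fold higher in both libraries.

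The comparison of the libraries asks how histone genes differed between cells kept with F/R/C+CP and with F/R/C. Over all kept barcodes the members summed to 1810 CPM in F/R/C+CP and 986 CPM in F/R/C. Core histone genes were mostly higher in F/R/C+CP, while linker histones differed less. H4c4 had 151 CPM in F/R/C+CP and 40.6 CPM in F/R/C (log2 1.90, 1.81 to 1.98). H3c3 had 28.4 and 3.99 CPM (2.83, 2.56 to 3.12). H2ac8 had 103 and 35.1 CPM (1.55, 1.45 to 1.64), and H2bc4 had 205 and 75.5 CPM (1.44, 1.38 to 1.51). The log2 ratio of H2bc4 turned to −0.42 (−0.57 to −0.26) among kept barcodes limited to UMI totals present in each library. Of the barcodes so limited, 150 of 6213 F/R/C+CP and 42 of 190 F/R/C ones were Acta1-high, and the part of this mix was not tested. The 5 muscle markers also differed, at 8440 CPM in F/R/C+CP and 2923 CPM in F/R/C over all kept barcodes. H2ac24, whose counts are uncertain, had 207 and 140 CPM, a smaller log2 ratio of 0.57 (0.52 to 0.62).

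Linker histones lay closer together. H1f5 had 419 CPM in F/R/C+CP and 276 CPM in F/R/C (0.60, 0.57 to 0.64). H1f4 had 170 and 110 CPM, H1f1 had 32.0 and 23.4 CPM, and H1f2 had 49.3 and 40.9 CPM (0.27, 0.18 to 0.36). H1f3 was the only linker histone past 2-fold, with 22.2 and 10.8 CPM (1.03, 0.87 to 1.21). The replacement genes H1f10, at 50.9 and 60.5 CPM (−0.25, −0.32 to −0.18), and H1f0, at 42.4 and 46.6 CPM (−0.14, −0.22 to −0.06), were below 0.

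Among the 61 members tested, 47 were at least 2-fold higher in F/R/C+CP (12.1% of all features tested) and none was 2-fold lower (14.3%), with a median log2 ratio of 1.45 against −0.13 over all features. By role, 1 of 8 H1 genes, 14 of 15 H2A, 13 of 15 H2B, 9 of 12 H3 and 10 of 11 H4 genes passed 2-fold, with medians of 0.36, 1.46, 1.54, 1.39 and 2.11. With at least 10 counts in the F/R/C library alone, 39 of 51 genes passed, and no share of all features was computed for that minimum. The genes short of 2-fold were H1f0, H1f1, H1f10, H1f2, H1f4, H1f5, H1f8, H2ac24, H2bc13, H2bc21, H3c14, H3c15, H3c8 and H4c9. The highest ratios among genes with at least 100 counts over both libraries were those of H4c11 (3.90, 2.03 to 6.95), H4c6 (3.28, 1.40 to 6.33) and H2bc12 (3.01, 1.64 to 4.90). They rested on 2, 2 and 4 F/R/C counts against 291, 189 and 314 in F/R/C+CP. The lowest were those of H1f10, H1f0 and H2bc21, the last at −0.07 (−1.01 to 1.04) on 10 F/R/C counts.

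**Figure D4:**
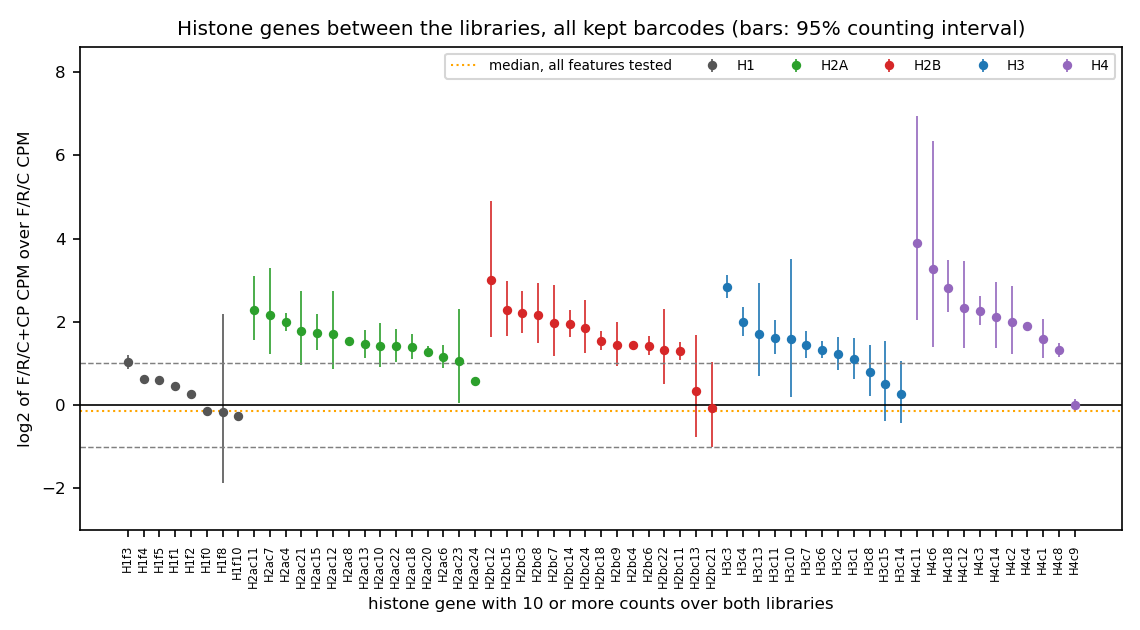
Log2 ratio of F/R/C+CP CPM over F/R/C CPM for the 61 histone genes with at least 10 counts over both libraries, all kept barcodes, grouped and coloured by role from H1 to H4 and sorted within each role, with 95% counting intervals, dashed lines at 2-fold and a dotted line at the median of all features tested (−0.13). Most core histone genes lie above the upper dashed line, and 7 of the 8 H1 genes lie below it.

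The difference was also present within classes. In S-phase-like barcodes 45 of 60 genes were at least 2-fold higher in F/R/C+CP (9.69% of all features tested) and 1 was 2-fold lower (14.2%), with a median of 1.97 against −0.14 over all features. H3c3 had 64.7 CPM in F/R/C+CP and 5.74 CPM in F/R/C (log2 3.49), H4c4 had 303 and 51.2 CPM (2.56, 2.36 to 2.78), H1f5 had 1242 and 711 CPM (0.80, 0.75 to 0.86), and H1f10 had 67.4 and 63.7 CPM (0.08). With at least 10 counts in S-phase-like F/R/C barcodes, 24 of 34 passed. In non-cycling Pax7-positive barcodes 16 of 30 were 2-fold higher (11.6%) with a median of 1.01 against −0.05, 7 of the 30 ratios being bounds. With at least 10 F/R/C counts there, 4 of 10 were 2-fold higher. For the stricter minimum in both classes no share of all features was computed. The S list had a median log2 ratio of −0.30 over all kept, −0.13 in S-phase-like and −0.04 in non-cycling Pax7-positive barcodes, and the G2/M list had −0.35, −0.09 and 0.10. Other markers moved with the comparison in non-cycling Pax7-positive barcodes. All 5 muscle markers were 2-fold higher there in F/R/C+CP (2684 and 244 CPM in sum, median log2 ratio 3.55), the 3 markers of committed cells had a median of 1.36 (2 of 3 past 2-fold), and the pericyte, smooth muscle and connective tissue markers had 0.68 (2 of 5). Muscle markers were also 2-fold higher in S-phase-like barcodes (5 of 5, 1740 and 233 CPM in sum). Their part in the histone values was not tested. Thinned to 2000 UMIs per barcode, 7 of 14 genes passed in the non-cycling class. Depth differed between the libraries as well. Among kept barcodes limited to UMI totals present in each library (12097 to 23465, 6213 F/R/C+CP and 190 F/R/C barcodes), 37 of 61 genes were 2-fold higher in F/R/C+CP. The mix of classes differed among them too, with 1044 F/R/C+CP and 4 F/R/C S-phase-like barcodes, and 150 and 42 Acta1-high ones. Of the 27 genes given by value, 7 had a ratio there within the counting interval of the value over all kept barcodes and 19 had one outside it. H2bc4, at least 2-fold higher over all kept barcodes, changed sign, and a change of sign in ratios under 2-fold was not counted apart.

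By the end of the gene model, the ratios over all kept barcodes had medians of 1.95 for genes whose models end near the stem-loop (19 of 21 at least 2-fold higher in F/R/C+CP), 1.45 for those with a long tail after it (14 of 19) and 1.46 for those without the letters (14 of 21). Genes that end near the stem-loop gave 25.1% of histone UMIs in S-phase-like and 3.73% in Acta1-high F/R/C+CP barcodes, and 23.8% and 3.15% in F/R/C barcodes. Genes without the letters, H2bc4 among them, gave 78.6% in Acta1-high F/R/C+CP barcodes and 72.6% in F/R/C ones.

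The 34 genes between 10 counts and 20 CPM comprised H1f8, 8 H2A, 10 H2B, 8 H3 and 7 H4 genes. Their levels over all kept F/R/C+CP barcodes were at or under 5.84 CPM, which was the level of H2bc3, with 1.26 CPM in F/R/C. H4c18 (5.83 and 0.826 CPM), H2ac15 (5.74 and 1.72 CPM), H3c11 (5.64 and 1.83 CPM) and H2ac22 (5.56 and 2.08 CPM) came next. H2bc21 and H3c15 stood apart among them, as they were not 2-fold higher in S-phase-like than in non-cycling F/R/C+CP barcodes. H3c15 had 0.379 CPM in S-phase-like, 1.51 in Acta1-high and 0.289 CPM in non-cycling Pax7-positive F/R/C+CP barcodes, and H2bc21 had 0.495, 0.280 and 0.386 CPM.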

How the data were processed

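Counts of 2 droplet 3' libraries, 1 per group, were used. Per the labels and the methods of the study, the authors made the deposited counts, in which each unique molecular identifier (UMI) of a gene in a barcode counts once, with Cell Ranger 7.0.0 on GRCm39, and the submitters' processing notes also list Seurat 4.2.1 and STARsolo. The methods mention SoupX correction of F/R/C+CP counts, but both matrices hold whole numbers, so whether it entered these values is not visible.

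Barcodes were kept with at least 250 genes, at most 7000 (F/R/C+CP) or 4000 (F/R/C) genes, at most 15% mitochondrial and 40% ribosomal protein counts. Classes were assigned per barcode within each library, in the order Acta1-high and Myog-high (10% each), S-phase-like and G2/M-like (top 15%), then non-cycling Pax7-positive (at least 1 Pax7 UMI and 100 CPM). Barcodes outside all classes were 46.1% of kept F/R/C+CP and 43.8% of kept F/R/C barcodes. The S and G2/M lists held no member. The members and all lists were chosen with earlier results of these data known.

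Counts were summed over barcodes and scaled to counts per 1000000 (CPM). Intervals of 95% are exact Poisson for levels, exact conditional binomial for ratios and exact Clopper-Pearson for shares. Where a sum was 0, a floor of 3 counts took its place and the ratio is a bound. Features with at least 10 counts over the sums compared were tested, and called at 2-fold. Members at 20 CPM in a class, and the 3 highest and 3 lowest ratios between libraries at 100 counts or more, are given by value. Other genes named were chosen after their values were seen. Alternatives were other scalings, count minimums, class limits, doublet removal (Scrublet in scanpy 1.11.5), thinning, UMI ranges and, chosen after seeing the data, leaving out barcode strings found in both libraries. Python 3.11.15, numpy 2.4.6, scipy 1.17.1 and pandas 2.3.3 were used, and the ratio step was tested on simulated data.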

Additional observations from a re-analysis of the deposited data

Results flagged for a closer look

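The ratio of H1f2 in Myog-high over non-cycling Pax7-positive barcodes had its counting interval on opposite sides of 0 in the libraries, with a log2 ratio of −0.46 in F/R/C+CP and 0.62 in F/R/C. H4c8 did so in Acta1-high over non-cycling Pax7-positive barcodes, with −0.84 in F/R/C+CP and 1.91 in F/R/C, where the non-cycling level rested on 4 UMIs. With 1 library per group these differences were not tested.

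Histone UMIs were also present in the barcodes that the filter left out, which no comparison uses. The members summed to 1180 CPM (95% interval 1170 to 1190) in 1166 F/R/C+CP barcodes and to 669 CPM (653 to 686) in 1579 F/R/C barcodes.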

How the results depend on the processing

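Over the alternatives, counts of members past 2-fold between libraries over all kept and S-phase-like barcodes stayed within 1.5 times, while the classes with few F/R/C counts moved with the count minimum and with thinning. In non-cycling barcodes 7 genes were 2-fold higher in F/R/C+CP after thinning to 2000 UMIs. For S-phase-like F/R/C barcodes 10 genes passed with a minimum of 50 counts and 13 after thinning, and for G2/M-like F/R/C barcodes 17 and 16. For Myog-high F/R/C+CP barcodes the higher genes numbered 7 with 50 counts, 6 after thinning, 1 with limits of 5% and 8%, 39 with limits of 20% and 25%, and 1 among barcodes low for both cycle lists. For Myog-high F/R/C barcodes they numbered 4, 4, 6 (limits of 5% and 8%) and 0 (low for both lists). For Acta1-high F/R/C+CP barcodes the higher genes numbered 5 and 4 and the lower genes 13 and 6 (50 counts, thinning). For Acta1-high F/R/C barcodes the higher genes numbered 2 and 3 and, with limits of 20% and 25%, 8, with 1 lower. The stricter minimum and thinning leave fewer genes tested, and the cause of the other changes was not tested. The share of all features was not computed under these alternatives.

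Over all alternatives, 2406 ratios of the 27 genes given by value stayed within the counting interval of the reported value and 294 left it. Another 12, all at least 2-fold with an interval off 0 as reported, changed sign. Changes of sign in smaller ratios were not counted apart. Of the ratios that stayed within, 280 and 226 came from count minimums of 1 and 50, which cannot change a ratio. A further 279 came from leaving out barcode strings found in both libraries, which kept 10819 of 10834 F/R/C+CP and 3949 of 3962 F/R/C barcodes. The total of 2406 therefore overstates how stable the ratios were. Thinning to 2000 UMIs moved 82 ratios and left 132 within, over comparisons between classes and between libraries together. For ratios between libraries over all kept barcodes, the shared UMI range moved 19, reversed 1 and left 7 within. Thinning also left 3584 of 3962 F/R/C barcodes, and the shared range changed the mix of classes. The part of depth in these changes was not tested. Medians over the members moved by less than 0.5 in 97 cases and by more in 16, among them Acta1-high F/R/C+CP barcodes, at −0.057 with limits of 20% and 25%. H2bc4 between libraries was −0.42 among barcodes of the UMI range that both hold (12097 to 23465). With limits of 20% and 25%, H1f10 was 0.032 in Myog-high and H2bc14 0.055 in Acta1-high F/R/C+CP barcodes, and H2ac8 was 0.18 in Acta1-high F/R/C barcodes. Among Myog-high barcodes low for both lists, F/R/C+CP ratios were −0.81 for H2ac24, −0.23 for H2ac4, −0.45 for H2ac8 and −0.36 for H2bc14, and F/R/C ratios were −2.42 for H1f5, −0.25 for H2ac24, −1.09 for H2ac8 and −0.46 for H4c4. In that shared UMI range 37 of 61 genes passed 2-fold, from 6213 F/R/C+CP and 190 F/R/C barcodes. It gave no value for S-phase-like and non-cycling barcodes, where 4 and 3 F/R/C barcodes were left, under a minimum of 20. No paired analysis was possible because each group has 1 library.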

Other observations

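Genes that process histone mRNA or carry histone proteins were in part higher in S-phase-like barcodes. Of the listed genes, 9 of 21 were at least 2-fold higher in S-phase-like than in non-cycling Pax7-positive F/R/C+CP barcodes (7.56% of all features tested) and 10 of 20 in F/R/C barcodes (9.05%). Slbp, which binds the stem-loop, had 150 against 41.7 CPM in F/R/C+CP and 145 against 38.6 CPM in F/R/C barcodes. Nasp, a chaperone of H1 and of H3 and H4, had 486 against 106 CPM and 351 against 91.2 CPM. Asf1b, another H3 and H4 chaperone, had 63.4 against 2.99 CPM and 57.2 against 2.70 CPM. Between the libraries, over all kept barcodes, 0 of 21 of these genes were 2-fold higher in F/R/C+CP, with a median log2 ratio of −0.12 beside 1.45 for the canonical histone genes.

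Among listed histone variants outside the symbols chosen here, 2 of 11 were 2-fold higher in S-phase-like than in non-cycling Pax7-positive F/R/C+CP barcodes (7.56% of all features tested) and 1 of 10 in F/R/C barcodes (9.05%). With so few genes these counts cannot be set apart from the share of all features. Ratios lay above 0 for 8 of 11 and 8 of 10 variants, with median log2 ratios of 0.29 and 0.43. H3f3a, which codes for the replacement histone H3.3, had 1241 CPM in S-phase-like against 1015 CPM in non-cycling Pax7-positive F/R/C+CP barcodes and 1625 against 1555 CPM in F/R/C barcodes. Cenpa, the H3 variant of centromeres, had 264 CPM in G2/M-like against 28.1 CPM in non-cycling Pax7-positive F/R/C+CP barcodes and 320 against 43.6 CPM in F/R/C barcodes. Between the libraries the median log2 ratio of the variants was −0.34, and none passed 2-fold in either direction.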
